A study of Arabidopsis thaliana with 36 samples.

Results

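The members are 81 probe sets of an Affymetrix Arabidopsis array whose levels separated 2 natural inbred lines (ecotypes) in roots and in shoots. The lines are Kas-1, written Kas, and Tsu-1, written Tsu. The probe sets were chosen by the levels measured after 48 h without iron: the mean log2 level of Kas minus that of Tsu, over 3 arrays each, had to be at least 2, which is 4-fold, in both tissues, or at most -2 in both. Of 22746 probe sets that are not Affymetrix controls, 33 were higher in Kas and 48 higher in Tsu by this rule. The probe set of AOP3, a glucosinolate synthesis gene, also met the threshold and was left out. Because the 48 h levels chose the members, they are given as a description with no test, and all tests use the 24 arrays sampled at 24 h.

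The study profiled roots and shoots of both ecotypes under iron deficiency on 36 arrays, in 12 groups of 3. Plants of 24 d, grown hydroponically on rockwool under a 16 h photoperiod, were moved to medium with 50 µM Fe(III)-EDDHA for 24 h, or to medium without iron for 24 h or 48 h. Each ecotype and tissue thus has 1 group with iron, sampled at 24 h, and a pair of groups without iron. No group is a mutant or a transgenic line, and no group with iron at 48 h was analysed here. Whether replicate arrays stand for separate cultures is not in the labels, so the p-values reflect the spread among arrays of a group, part of which may be technical. An array level is a mean over many cells, so fewer cells of a type and less RNA per cell cannot be told apart.

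Ecotypes of Arabidopsis thaliana are inbred lines from different places of origin that carry many differences in their DNA, including genes that are missing, duplicated or silenced in some lines. The probes of this array were designed on the reference accession Columbia. A line whose sequence differs under a probe binds it less well, so for a member that is low in 1 line in every array a lower level and a poorer probe match cannot be told apart. A change in the line's own DNA is carried by every tissue of the plant, whatever medium it stands in.

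Before the results, 10 of the 24 arrays sampled at 24 h need naming, because the members read between the levels of the ecotypes there. Each member was placed on a scale on which 0 is the Tsu mean and 1 the Kas mean of that tissue at 48 h, in log2 units. The median position of the 81 members lay between 0.25 and 0.75 in all 3 arrays of Tsu shoots and all 3 of Tsu roots after 24 h without iron. The same held for replicate 3 of Tsu roots with iron, replicates 2 and 3 of Kas roots with iron, and replicate 1 of Kas roots after 24 h without iron. Whether these arrays hold material of both ecotypes, or what else set them apart, was not tested. Fits without them were therefore also made, with the 3 Tsu root arrays without iron kept, because no other array of that group exists. In roots they leave Kas with iron 1 array, and the arrays were picked on the members' own levels. Counts of calls from these root fits are therefore left out of the results below. They are listed only where the dependence on the processing is described, and the fits support nothing.

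The tissue labels held in every array, although the protocol speaks of rosettes for every sample. Mean levels of the 4 measured photosystem genes were 3.26 to 4.68 in the root arrays and 11.6 to 11.9 in the shoot arrays. The 3 measured root genes were at 7.60 to 8.64 in roots and 4.00 to 4.68 in shoots. Array medians ran from 4.91 to 5.14, and no pair of arrays held identical values. A control probe set for 25S ribosomal RNA varied widely, from 5.21 to 11.5 in roots. In shoots with iron it was at 9.03 ± 0.46 in Kas and 5.55 ± 0.37 in Tsu (SD, n = 3). In shoots at 24 h without iron it was at 9.65 ± 0.27 in Kas and 6.16 ± 0.44 in Tsu. In shoots at 48 h it read 9.81, 9.78 and 9.80 in Kas and 5.84, 6.67 and 9.07 in Tsu. In roots at 48 h the order was the opposite, at 6.12, 6.91 and 5.21 in Kas and 11.5, 11.1 and 9.25 in Tsu. The groups that chose the members thus did not overlap in either tissue. In roots with iron the groups overlapped. In roots at 24 h without iron they did not, at 10.76, 10.94 and 7.14 in Kas and 11.05, 10.98 and 11.01 in Tsu. The part of this control probe set in the results was not tested.

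At 48 h the members higher in Kas differed by 2.04 to 5.61 in roots, with a median of 3.01, and by 2.05 to 7.67 in shoots, with a median of 2.73. Those higher in Tsu differed by -5.03 to -2.01 in roots, with a median of -2.94, and by -7.62 to -2.03 in shoots, with a median of -2.85. The difference was larger in roots for 31 members and larger in shoots for 50. With each tissue taken by itself, 305 probe sets passed the threshold in roots and 385 in shoots. Both counts include the members and the 7 probe sets that passed it in both tissues with opposite signs. In the ecotype with the lower level, 18 members lay below the lower quartile of all probe sets in roots and 30 did so in shoots. In the ecotype with the higher level, 75 lay above the median in roots and 72 in shoots. These counts use the levels that chose the members, so they are in part set by the rule.

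**Figure D1:**
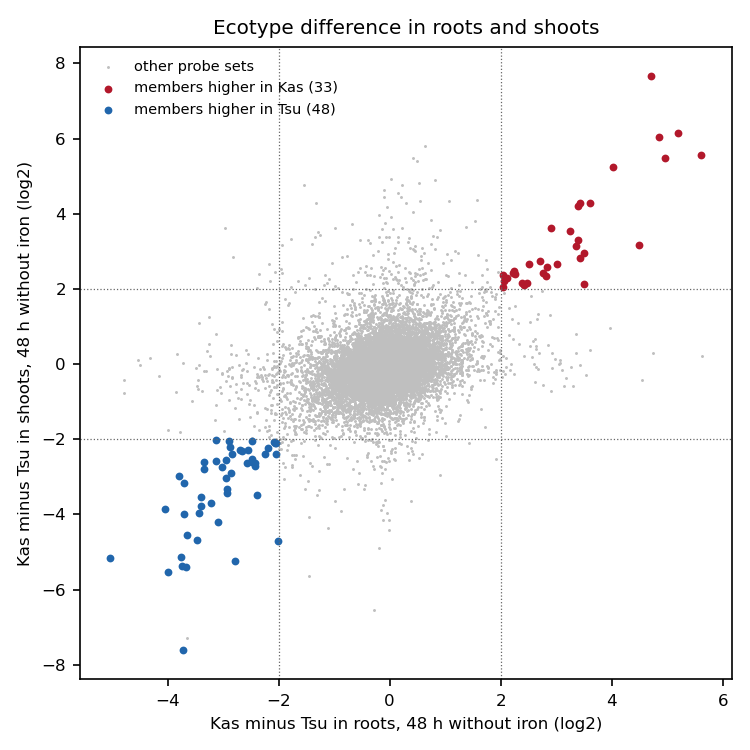
Kas minus Tsu (mean log2, 3 arrays each) after 48 h without iron for every probe set, in roots on the x axis and shoots on the y axis. Coloured points are the 81 members, 33 higher in Kas and 48 higher in Tsu, and the lines mark the threshold of 2 in both directions; the AOP3 probe set is the grey point among the Tsu-higher members.

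The threshold cuts through a continuous range of differences. Just inside it stood AT2G23480, a pseudogene by its annotation, with a difference of -2.01 in roots and -4.70 in shoots. Its root levels at 48 h were 2.93, 3.40 and 2.60 in Kas and 5.27, 4.89 and 4.79 in Tsu, and its shoot levels were 2.86, 2.73 and 2.87 in Kas and 7.67, 7.45 and 7.43 in Tsu. The groups lay apart in both tissues, as they did for the other members just inside. The probe set 247189_at read 4.43, 5.46 and 4.86 in Kas roots and 7.95, 8.03 and 8.16 in Tsu roots, with 3.44, 3.21 and 3.42 in Kas shoots and 5.58, 4.92 and 5.66 in Tsu shoots. The probe set 254846_at read 2.73, 3.07 and 2.69 in Kas roots and 5.46, 5.28 and 5.15 in Tsu roots, with 2.96, 2.99 and 2.84 in Kas shoots and 4.96, 4.73 and 5.21 in Tsu shoots. Both had their smaller difference in shoots, -2.03 and -2.04. Just outside stood HEMB1, an enzyme of chlorophyll and heme synthesis, with a root difference of -1.997. Its levels were 4.76, 5.28 and 4.78 in Kas roots, 6.86, 7.03 and 6.92 in Tsu roots, 6.71, 6.67 and 6.52 in Kas shoots and 8.79, 8.91 and 8.97 in Tsu shoots. The next outside, 258133_at, missed by its root difference of -1.98, with 6.54, 7.01 and 6.75 in Kas roots, 9.16, 8.72 and 8.36 in Tsu roots, 5.46, 5.23 and 4.95 in Kas shoots and 7.40, 7.48 and 7.08 in Tsu shoots. The third, 3xHMG-box1, a protein with HMG boxes, missed by its shoot difference of -1.98. It read 2.63, 2.61 and 2.60 in Kas roots, 4.90, 4.73 and 4.33 in Tsu roots, 2.23, 2.10 and 2.15 in Kas shoots and 4.62, 3.59 and 4.22 in Tsu shoots. The groups of these 3 lay apart in both tissues too. The same arrays placed these probe sets at the threshold, inside and outside alike, so groups lying apart there supports nothing. The share of all probe sets with groups apart at 48 h was not counted.

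By annotation the members are a mixed set. Of the 81, 47 have 1 gene in the array's annotation, 7 have several and 27 have none. Members with several genes are not named, and those with none are called by their probe set. Of the 47 genes, 43 code for proteins, AT2G12050 and AT4G14610 are transcribed pseudogenes, and AT4G03530 and AT2G23480 are pseudogenes, by the RefSeq annotation of TAIR10.1. Chromosomes 1 to 5 held 8, 7, 12, 11 and 9 of these genes. The closest pair on a chromosome was AT4G31530, higher in Kas, and AT4G31570, higher in Tsu, 5 genes apart and opposite in direction. AT3G44070 and AT3G44100, both higher in Kas, lay 8 genes apart, and the next closest pair lay 34 genes apart.

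The genes higher in Kas include proteins of recognition and signalling. AT5G59680 is a receptor kinase with leucine-rich repeats, AT1G11280 a receptor-like kinase with a lectin domain, AT5G45500 a protein with leucine-rich repeat-like sequence, and ZW9 a protein with a TRAF-like domain. Others act on proteins, sugars or lipids: scpl41 is a serine carboxypeptidase-like protein, AT1G23440 belongs to the pyroglutamyl peptidases, AT3G44070 to the glycosyl hydrolases, and AT3G44100 carries an MD-2-related lipid recognition domain. Chromosome proteins are HTB11, a histone H2B, and AT3G48210, related to a kinetochore subunit. The genes higher in Tsu include CSA1, a resistance receptor of the TIR-NBS-LRR class, and TUA6, an alpha tubulin. They also include AT1G06760, the linker histone H1.1, CSLC04, which makes the glucan backbone of xyloglucan, SUFE2, which activates the plastid cysteine desulfurase, and ARPN, a blue copper protein also named plantacyanin. AT5G04750 encodes an inhibitor of the F1F0-ATPase, AT3G57470 a peptidase of the insulinase type, AT5G05750 a DnaJ protein, AT5G18340 a U-box protein, AT2G34840 a coatomer subunit and TBL23 a trichome birefringence-like protein.

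The 8 members of each direction with 1 gene and the largest smaller-of-tissues difference at 48 h are given array by array, as log2 levels of replicates 1, 2 and 3. In Kas roots AT5G45500 read 9.65, 9.02 and 9.20 with iron, 8.93, 9.95 and 10.25 after 24 h of deficiency and 9.94, 9.73 and 10.04 after 48 h. AT5G45500 levels of the Tsu roots arrays were 9.18, 7.40 and 9.62 with iron, 8.93, 8.87 and 8.59 at 24 h without it and 3.17, 6.60 and 3.10 at 48 h. The root groups of AT5G45500 overlapped at 24 h on both media, and replicate 2 of Tsu at 48 h stood well above the other Tsu arrays of that time. AT5G45500 in Kas shoots was at 7.87, 7.995 and 8.18 with iron, at 8.19, 8.11 and 8.15 after 24 h without it and at 8.27, 8.30 and 8.44 after 48 h. For AT5G45500, Tsu shoots read 3.80, 3.25 and 2.97 with iron, 7.79, 7.79 and 7.73 at 24 h without it and 2.57, 2.60 and 3.18 at 48 h. In shoots, Tsu with iron and at 48 h lay far below Kas, while Tsu at 24 h without iron lay just under the lowest Kas array. In Kas roots AT4G29200 read 8.20, 7.19 and 7.54 with iron, 7.26, 8.10 and 8.58 after 24 h of deficiency and 8.20, 8.11 and 8.25 after 48 h. AT4G29200 levels of the Tsu roots arrays were 6.87, 3.96 and 7.64 with iron, 8.07, 8.27 and 7.86 at 24 h without it and 2.27, 5.01 and 2.39 at 48 h. The root arrays of AT4G29200 overlapped between the ecotypes at 24 h on both media and were apart at 48 h. AT4G29200 in Kas shoots was at 8.07, 8.13 and 8.27 with iron, at 8.03, 8.14 and 8.17 after 24 h without it and at 8.25, 8.26 and 8.28 after 48 h. For AT4G29200, Tsu shoots read 2.87, 2.38 and 2.71 with iron, 7.78, 7.997 and 7.92 at 24 h without it and 2.72, 3.01 and 2.64 at 48 h. In shoots the 3 Tsu arrays at 24 h without iron were again a little below all the Kas arrays, and the other 6 Tsu arrays far below.

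In Kas roots AT1G73490 read 8.39, 6.92 and 7.70 with iron, 6.86, 8.07 and 8.13 after 24 h of deficiency and 8.39, 8.37 and 8.17 after 48 h. AT1G73490 levels of the Tsu roots arrays were 6.48, 5.37 and 7.62 with iron, 8.36, 8.73 and 8.17 at 24 h without it and 3.39, 5.61 and 3.85 at 48 h. The order of AT1G73490 in roots at 24 h without iron was turned, with every Tsu array above every Kas array, although the difference was not called (-0.73, adjusted p = 0.437 by limma). AT1G73490 in Kas shoots was at 8.41, 8.40 and 8.35 with iron, at 8.13, 8.41 and 8.29 after 24 h without it and at 8.41, 8.48 and 8.47 after 48 h. For AT1G73490, Tsu shoots read 3.60, 3.84 and 2.89 with iron, 8.31, 8.47 and 7.90 at 24 h without it and 3.05, 3.45 and 3.09 at 48 h. The shoot arrays at 24 h without iron overlapped, and those with iron were well apart. In Kas roots scpl41 read 5.68, 4.76 and 4.99 with iron, 4.80, 5.98 and 6.50 after 24 h of deficiency and 6.31, 6.10 and 6.58 after 48 h. scpl41 levels of the Tsu roots arrays were 4.30, 3.08 and 4.72 with iron, 4.91, 5.22 and 4.79 at 24 h without it and 2.45, 3.06 and 2.64 at 48 h. Roots were apart with iron and at 48 h, and overlapped at 24 h without iron. scpl41 in Kas shoots was at 7.08, 6.92 and 7.05 with iron, at 6.91, 6.88 and 6.79 after 24 h without it and at 6.85, 6.86 and 7.06 after 48 h. For scpl41, Tsu shoots read 2.51, 2.85 and 2.49 with iron, 5.79, 6.43 and 6.12 at 24 h without it and 2.96, 2.56 and 2.41 at 48 h. The scpl41 levels of Tsu shoots at 24 h without iron lay between the other Tsu arrays and all the Kas arrays, touching neither. In Kas roots AT2G15560 read 7.94, 7.08 and 7.47 with iron, 7.01, 8.23 and 8.03 after 24 h of deficiency and 7.98, 8.05 and 7.76 after 48 h. AT2G15560 levels of the Tsu roots arrays were 6.97, 5.26 and 7.91 with iron, 8.52, 8.70 and 8.23 at 24 h without it and 3.97, 5.81 and 3.70 at 48 h. With iron the root arrays overlapped, and at 24 h without it Tsu replicate 3 shared the highest Kas value while the other Tsu arrays lay above it. AT2G15560 in Kas shoots was at 8.19, 8.24 and 8.19 with iron, at 8.16, 8.10 and 8.16 after 24 h without it and at 8.27, 8.15 and 8.13 after 48 h. For AT2G15560, Tsu shoots read 4.58, 3.36 and 3.92 with iron, 8.56, 8.76 and 8.72 at 24 h without it and 3.79, 4.71 and 3.18 at 48 h. Here the 3 Tsu arrays at 24 h without iron stood above all 9 Kas shoot arrays.

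In Kas roots ZW9 read 8.10, 6.15 and 7.58 with iron, 6.08, 7.25 and 7.40 after 24 h of deficiency and 7.20, 7.05 and 7.31 after 48 h. ZW9 levels of the Tsu roots arrays were 6.65, 5.81 and 6.15 with iron, 6.64, 6.92 and 6.42 at 24 h without it and 3.11, 4.93 and 3.33 at 48 h. Root levels of ZW9 overlapped on both media at 24 h. ZW9 in Kas shoots was at 7.34, 6.53 and 7.13 with iron, at 6.96, 7.25 and 7.17 after 24 h without it and at 6.80, 6.99 and 7.16 after 48 h. For ZW9, Tsu shoots read 2.84, 2.55 and 2.56 with iron, 7.14, 6.85 and 7.02 at 24 h without it and 2.90, 2.78 and 2.65 at 48 h. The shoot groups overlapped at 24 h without iron and were far apart on the other occasions. In Kas roots AT2G12050 read 5.83, 4.90 and 4.93 with iron, 5.12, 5.87 and 6.15 after 24 h of deficiency and 6.19, 5.64 and 5.83 after 48 h. AT2G12050 levels of the Tsu roots arrays were 4.36, 2.56 and 4.49 with iron, 5.75, 5.83 and 5.55 at 24 h without it and 2.37, 3.02 and 2.54 at 48 h. The groups were apart in roots with iron, and at 24 h without iron all 3 Tsu arrays lay within the Kas range. AT2G12050 in Kas shoots was at 5.81, 6.03 and 5.98 with iron, at 5.89, 5.81 and 5.89 after 24 h without it and at 5.87, 6.01 and 6.09 after 48 h. For AT2G12050, Tsu shoots read 2.73, 2.19 and 2.70 with iron, 4.97, 5.01 and 4.20 at 24 h without it and 2.32, 2.62 and 2.40 at 48 h. Like scpl41, this transcribed pseudogene was between the ecotypes in Tsu shoots at 24 h without iron. In Kas roots AT5G59680 read 9.58, 8.85 and 8.99 with iron, 9.16, 10.25 and 10.51 after 24 h of deficiency and 9.97, 9.76 and 9.84 after 48 h. AT5G59680 levels of the Tsu roots arrays were 8.94, 7.26 and 9.33 with iron, 10.20, 10.36 and 9.87 at 24 h without it and 4.61, 7.60 and 3.87 at 48 h. Both root comparisons at 24 h overlapped for this receptor kinase. AT5G59680 in Kas shoots was at 6.35, 6.70 and 6.27 with iron, at 6.23, 6.15 and 6.48 after 24 h without it and at 6.58, 6.48 and 6.58 after 48 h. For AT5G59680, Tsu shoots read 2.93, 3.06 and 3.17 with iron, 6.18, 6.45 and 6.29 at 24 h without it and 3.03, 3.73 and 3.34 at 48 h. In shoots at 24 h without iron the Tsu arrays lay within the range of Kas, and in the other groups they lay far below.

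Among the genes higher in Tsu, alpha tubulin TUA6 had the widest gap of the 8 in shoots with iron. In Kas roots TUA6 read 5.01, 10.03 and 9.01 with iron, 9.54, 4.91 and 4.75 after 24 h of deficiency and 5.05, 7.11 and 6.91 after 48 h. TUA6 levels of the Tsu roots arrays were 9.78, 10.38 and 9.11 with iron, 8.54, 7.75 and 8.75 at 24 h without it and 10.20, 10.16 and 10.69 at 48 h. Kas replicates 2 and 3 with iron and replicate 1 at 24 h without it reached Tsu levels, while the other 3 Kas root arrays of 24 h read about 5. TUA6 in Kas shoots was at 5.54, 4.80 and 5.27 with iron, at 5.14, 5.004 and 4.99 after 24 h without it and at 4.72, 4.71 and 5.35 after 48 h. For TUA6, Tsu shoots read 10.69, 10.66 and 10.59 with iron, 9.32, 8.14 and 8.56 at 24 h without it and 10.20, 10.44 and 10.73 at 48 h. All Kas shoot arrays were low, and Tsu at 24 h without iron lay below the other Tsu arrays but above every Kas array. In Kas roots AT3G62400 read 4.69, 5.22 and 5.66 with iron, 5.17, 4.48 and 4.45 after 24 h of deficiency and 4.62, 4.79 and 4.70 after 48 h. AT3G62400 levels of the Tsu roots arrays were 8.60, 8.56 and 7.88 with iron, 8.16, 8.03 and 8.06 at 24 h without it and 8.65, 8.85 and 8.72 at 48 h. AT3G62400 kept its root groups apart at every time and on both media. AT3G62400 in Kas shoots was at 3.86, 3.95 and 4.03 with iron, at 4.09, 4.09 and 3.94 after 24 h without it and at 4.22, 4.24 and 3.98 after 48 h. For AT3G62400, Tsu shoots read 7.89, 8.34 and 7.98 with iron, 7.50, 6.82 and 7.48 at 24 h without it and 8.002, 7.77 and 8.25 at 48 h. The shoot groups were apart throughout as well, with the 3 Tsu arrays at 24 h without iron lowest of the Tsu arrays. In Kas roots AT3G57470 read 2.42, 5.09 and 4.84 with iron, 5.33, 2.45 and 2.67 after 24 h of deficiency and 2.48, 2.92 and 2.68 after 48 h. AT3G57470 levels of the Tsu roots arrays were 5.53, 5.81 and 5.03 with iron, 4.81, 3.95 and 4.55 at 24 h without it and 6.38, 6.32 and 6.51 at 48 h. This peptidase gene followed TUA6, with the same 3 Kas root arrays high. AT3G57470 in Kas shoots was at 2.51, 2.62 and 2.47 with iron, at 2.46, 2.75 and 2.43 after 24 h without it and at 2.57, 2.69 and 2.79 after 48 h. For AT3G57470, Tsu shoots read 6.88, 6.39 and 6.78 with iron, 5.36, 4.95 and 5.40 at 24 h without it and 6.70, 6.63 and 6.64 at 48 h. Kas shoots stayed low in every array, and Tsu shoots were lower at 24 h without iron than in the other groups.

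In Kas roots CSA1 read 2.71, 5.73 and 5.45 with iron, 5.75, 2.57 and 2.62 after 24 h of deficiency and 2.74, 3.29 and 3.09 after 48 h. CSA1 levels of the Tsu roots arrays were 6.07, 6.56 and 5.60 with iron, 5.19, 4.38 and 5.44 at 24 h without it and 6.81, 6.68 and 6.62 at 48 h. The resistance receptor gene CSA1 was high in the same 3 Kas root arrays as TUA6, so the root groups overlapped at 24 h. CSA1 in Kas shoots was at 2.46, 2.47 and 3.05 with iron, at 2.62, 3.004 and 2.53 after 24 h without it and at 2.55, 2.83 and 2.69 after 48 h. For CSA1, Tsu shoots read 7.88, 7.94 and 7.88 with iron, 6.47, 5.72 and 6.28 at 24 h without it and 8.11, 8.31 and 7.88 at 48 h. In shoots CSA1 was low in all 9 Kas arrays and high in all 9 Tsu arrays, with Tsu at 24 h without iron the lowest. In Kas roots AT2G03470 read 3.26, 5.62 and 5.72 with iron, 6.14, 2.67 and 2.96 after 24 h of deficiency and 3.16, 4.07 and 3.80 after 48 h. AT2G03470 levels of the Tsu roots arrays were 6.43, 6.78 and 6.23 with iron, 5.73, 4.81 and 5.79 at 24 h without it and 7.26, 7.05 and 6.95 at 48 h. The pattern in roots recurred for AT2G03470, a protein with an ELM2 domain. AT2G03470 in Kas shoots was at 3.33, 3.25 and 3.32 with iron, at 2.86, 2.92 and 3.04 after 24 h without it and at 3.63, 3.21 and 2.86 after 48 h. For AT2G03470, Tsu shoots read 6.74, 6.63 and 6.98 with iron, 5.56, 4.85 and 5.60 at 24 h without it and 7.03, 6.96 and 7.01 at 48 h. Its shoot groups did not overlap in any condition. In Kas roots AT5G04750 read 6.14, 8.27 and 7.23 with iron, 7.61, 6.61 and 6.25 after 24 h of deficiency and 6.02, 6.36 and 6.41 after 48 h. AT5G04750 levels of the Tsu roots arrays were 9.29, 9.20 and 9.001 with iron, 8.63, 8.46 and 8.76 at 24 h without it and 9.57, 9.79 and 9.61 at 48 h. For the ATPase inhibitor AT5G04750 the same 3 Kas arrays were higher than the rest, but by less, and the root groups stayed apart. AT5G04750 in Kas shoots was at 4.97, 5.07 and 5.03 with iron, at 5.23, 5.22 and 5.12 after 24 h without it and at 5.05, 4.90 and 4.56 after 48 h. For AT5G04750, Tsu shoots read 7.86, 8.02 and 7.98 with iron, 7.09, 7.22 and 7.50 at 24 h without it and 8.71, 8.29 and 8.15 at 48 h. The shoot groups were apart in all conditions.

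In Kas roots AT3G60980 read 2.14, 4.90 and 4.19 with iron, 4.49, 2.66 and 2.42 after 24 h of deficiency and 2.72, 3.05 and 2.33 after 48 h. AT3G60980 levels of the Tsu roots arrays were 5.26, 5.78 and 5.16 with iron, 4.18, 3.45 and 4.52 at 24 h without it and 5.90, 5.52 and 5.96 at 48 h. AT3G60980 in roots was apart with iron and overlapped at 24 h without it. AT3G60980 in Kas shoots was at 2.63, 2.06 and 2.61 with iron, at 2.30, 2.23 and 1.98 after 24 h without it and at 2.16, 2.06 and 2.24 after 48 h. For AT3G60980, Tsu shoots read 6.38, 6.40 and 6.36 with iron, 4.78, 4.17 and 4.04 at 24 h without it and 6.31, 6.47 and 6.34 at 48 h. Shoots kept the ecotypes apart, and Tsu at 24 h without iron lay nearest to Kas. In Kas roots AT5G05750 read 3.06, 5.16 and 4.91 with iron, 5.57, 3.03 and 3.20 after 24 h of deficiency and 3.04, 3.32 and 3.40 after 48 h. AT5G05750 levels of the Tsu roots arrays were 6.05, 6.55 and 5.65 with iron, 5.16, 4.24 and 5.32 at 24 h without it and 7.33, 7.04 and 6.78 at 48 h. The DnaJ gene AT5G05750 behaved likewise in roots, with Kas replicate 1 without iron above all Tsu arrays of that group. AT5G05750 in Kas shoots was at 3.33, 3.06 and 3.12 with iron, at 2.86, 2.74 and 3.03 after 24 h without it and at 3.06, 2.88 and 3.11 after 48 h. For AT5G05750, Tsu shoots read 5.98, 6.03 and 5.89 with iron, 4.51, 4.20 and 4.65 at 24 h without it and 6.07, 5.998 and 5.96 at 48 h. In shoots no Kas array reached a Tsu array.

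The heat map of all members shows the same arrays standing between the ecotypes, and how the members of both directions move there together.

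**Figure D2:**
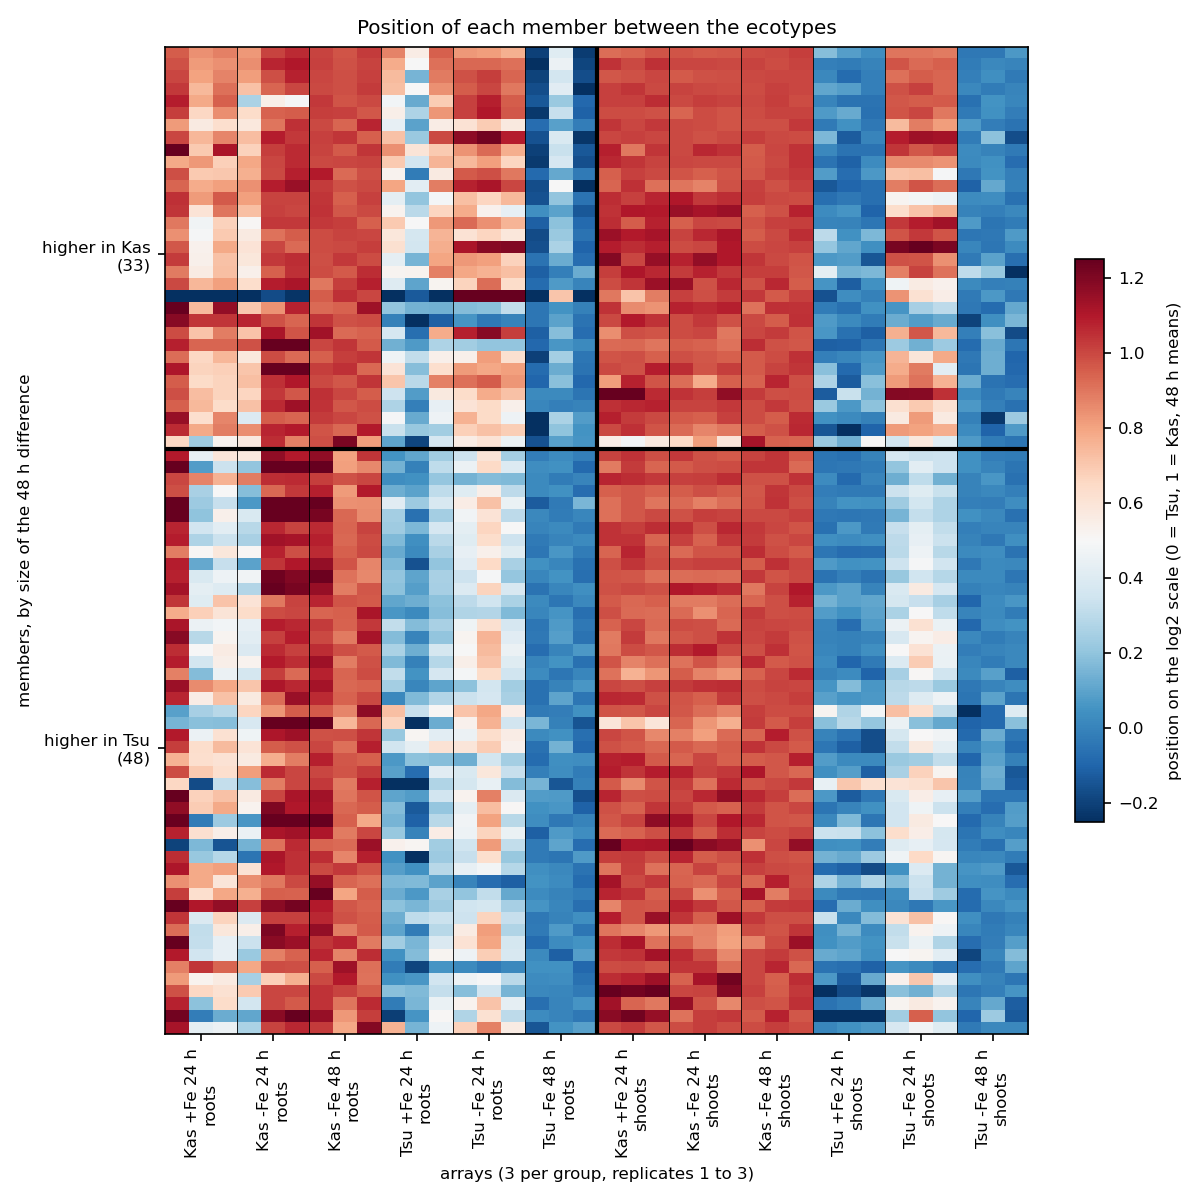
Position of each of the 81 members (rows, by direction) in each of the 36 arrays (columns, by tissue, ecotype and medium), where 0 is the Tsu mean and 1 the Kas mean of the tissue at 48 h on the log2 scale. Kas shoot arrays are near 1 and Tsu shoot arrays with iron near 0, while Tsu arrays at 24 h without iron and several root arrays at 24 h lie between.

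Whether the ecotypes also differ at 24 h, in arrays the rule did not use, was tested with limma over all 22746 probe sets, with Benjamini-Hochberg adjusted p below 0.05 as a call. In shoots with iron all 81 members were called in their 48 h direction, the 33 higher in Kas and the 48 higher in Tsu, where 34.3% of all probe sets were called, 13.6% as higher in Kas and 20.6% as higher in Tsu. The median difference was 2.94 over the members higher in Kas and -2.81 over those higher in Tsu, against -0.06 over all probe sets. It was at least 2 in the 48 h direction for 72 members. The smallest were those of AT3G48210 (0.50, adjusted p = 0.0419) and SUFE2 (-0.87), and among members with 1 gene the largest were those of AT4G29200 (5.51) and TUA6 (-5.44), with 8.15 for the unnamed probe set 255437_at. For the 8 genes higher in Kas above, the difference ran from 3.39 for AT5G59680 to 5.51 for AT4G29200, with adjusted p from 5.21e-14 to 1.5e-09. For the 8 higher in Tsu it ran from -5.44 for TUA6 to -2.80 for AT5G05750. The 3 arrays of each ecotype did not overlap for 43.5% of all probe sets here.

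In shoots after 24 h without iron 63 members were called in their 48 h direction, 15 higher in Kas and 48 higher in Tsu, where 21.7% of all probe sets were called, 7.01% as higher in Kas and 14.7% as higher in Tsu. The receptor-like kinase gene AT1G11280, a member higher in Kas at 48 h, was called the opposite way (-0.55, adjusted p = 0.00572). The median difference was 0.38 over the members higher in Kas and -1.77 over those higher in Tsu, against -0.07 over all probe sets, and 22 members kept a difference of at least 2. The 17 members not called were all higher in Kas at 48 h, and those with 1 gene were AT1G73490, AT5G59680, AT5G45500, AT3G48210, AT3G44070, AT4G29200, AT4G02850, ZW9, AT3G28940, AT3G09380 and AT2G15560. Of the 8 genes higher in Kas above, scpl41 (0.75, adjusted p = 0.0019) and AT2G12050 (1.14, adjusted p = 0.000528) were called. All 8 higher in Tsu were, from -3.63 for TUA6 to -1.57 for AT5G05750. For all probe sets, the 3 arrays of each ecotype did not overlap in 40.7%. The 3 Tsu arrays of this comparison are all among the 10 named at the start, so it has no value without them.

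In roots with iron 23 members were called in their 48 h direction, 7 higher in Kas and 16 higher in Tsu, where 5.66% of all probe sets were called, 1.86% as higher in Kas and 3.79% as higher in Tsu. The median difference was 1.07 over the members higher in Kas and -1.52 over those higher in Tsu, against -0.09 over all probe sets. Without regard to the test 77 of the 81 pointed in the 48 h direction, and 10 reached a difference of 2. For all probe sets, the 3 arrays of each ecotype did not overlap in 25.9%. The count was 14 without replicate 2 of Tsu with iron and 14 without replicate 1 of Kas with iron. It ran from 14 to 34 when any 1 array was left out. It was 7 with a fit of the 6 arrays compared alone. Calls over all probe sets moved as well, and were 215 to 2937 without 1 array, against 1287 with all arrays. Of the 16 genes above, AT3G62400 (-3.16, SE 0.26, adjusted p = 0.000192) and AT5G04750 (-1.95, adjusted p = 0.0293) were called.

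In roots after 24 h without iron 17 members were called in their 48 h direction, 4 higher in Kas and 13 higher in Tsu, where 9.54% of all probe sets were called, 2.45% as higher in Kas and 7.09% as higher in Tsu. A pair of members higher in Kas at 48 h were called the opposite way, AT2G21640 and probe set 255437_at. The median difference was 0.42 over the members higher in Kas and -1.23 over those higher in Tsu, against -0.04 over all probe sets. In all, 72 members pointed in the 48 h direction and 9 reached a difference of 2. For all probe sets, the 3 arrays of each ecotype did not overlap in 36.9%. The count was 29 without replicate 1 of Kas without iron, which is also among the 10 arrays named above. Leaving out any 1 array gave 12 to 29. Over all probe sets 1010 to 1824 were called without 1 array, against 2171 with all arrays. With all arrays AT3G62400 (-3.38, adjusted p = 7.79e-06) and AT5G04750 (-1.80, adjusted p = 0.0234) were again called. Without 1 array the difference of AT5G04750 ran from -2.19 to -1.51, and whether it stayed called is not given here.

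Every member was called in its 48 h direction in at least 1 of the 4 comparisons. There was 1 such call for 16 members, all higher in Kas, and 43 members had 2, of which 11 were higher in Kas and 32 in Tsu. Another 6 members had 3 calls, among them AT3G28940, an AIG2-like gene, and AT4G31530, a protein with a Rossmann fold, both higher in Kas. All 4 comparisons called 16 members, 3 higher in Kas and 13 in Tsu. With 1 gene these were AT1G23440 and AT4G09890 for Kas, and ARPN, AT1G59960, AT3G62400, AT5G04750, AT5G18340, AT5G51620 and CSLC04 for Tsu. How many of all probe sets had as many calls was not counted, so these numbers of calls only describe the members. In shoots with iron alone 34.3% of all probe sets were called. Over both media, the 6 root arrays of each ecotype did not overlap for 18 members, against 5.52% of all probe sets, and the 6 shoot arrays did not for 67, against 14.9%. The same 18 members were apart in both tissues, 5 higher in Kas and 13 in Tsu.

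The aldo-keto reductase gene AT1G59960 differed by -2.37 in roots with iron, -2.04 in roots without, -2.99 in shoots with iron and -2.54 in shoots without. In the same order CSLC04 gave -1.52, -1.94, -3.11 and -1.76, the U-box gene AT5G18340 -1.79, -1.58, -2.80 and -1.72, and AT5G51620 -1.60, -1.36, -2.81 and -1.46. All 16 values were called, and in each of these 4 genes the shoot difference was smaller without iron than with it. The linker histone AT1G06760 was called in shoots, at -1.76 with iron and -0.92 without, and not in roots (-1.05 and -0.86). The histone gene HTB11, of the other direction, was called in shoots too, at 3.20 and 1.27, and its root values were 1.23 and 1.16.

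How far each array lay between the ecotypes was measured on the linear scale as well, since a position in log2 units depends on which ecotype has the lower level. On the log2 scale Tsu shoots at 24 h without iron were at 0.475 ± 0.085 (SD, n = 3) over all members, but at 0.851 over the members higher in Kas and 0.384 over those higher in Tsu. On the linear scale both directions gave like positions, 0.682 ± 0.037 and 0.663 ± 0.085. By array these were 0.685, 0.717 and 0.643 for members higher in Kas, and 0.595, 0.758 and 0.636 for those higher in Tsu. No reason for the positions was tested.

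Tsu roots after 24 h without iron lay at 0.622, 0.639 and 0.524 on the linear scale for the members higher in Kas, and at 0.674, 0.843 and 0.551 for those higher in Tsu. With iron the Tsu root arrays read 0.269, 0.0717 and 0.429 for the former and 0.323, 0.144 and 0.512 for the latter. All 3 Tsu arrays without iron thus lay further from the Tsu level at 48 h than the 3 with iron, for members of both directions. Kas roots with iron lay at 0.983, 0.471 and 0.603 for the members higher in Kas, and at 1.02, 0.673 and 0.778 for those higher in Tsu. Kas roots at 24 h without iron lay at 0.469, 1.04 and 1.12, and at 0.703, 1.01 and 1.02. Within both Kas root groups the arrays thus split, with 1 of 3 at the Kas level with iron and 2 of 3 at it without. The shoot groups did not split: Kas shoots were at 0.995 ± 0.009 with iron and 0.990 ± 0.006 at 24 h without it, and Tsu shoots with iron at 0.0172 ± 0.0123, on the log2 scale over all members (SD, n = 3). Replicate 2 of Tsu roots at 48 h, which helped to set the scale, held 12 of the members higher in Kas between 0.25 and 0.75 on the log2 scale.

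**Figure D3:**
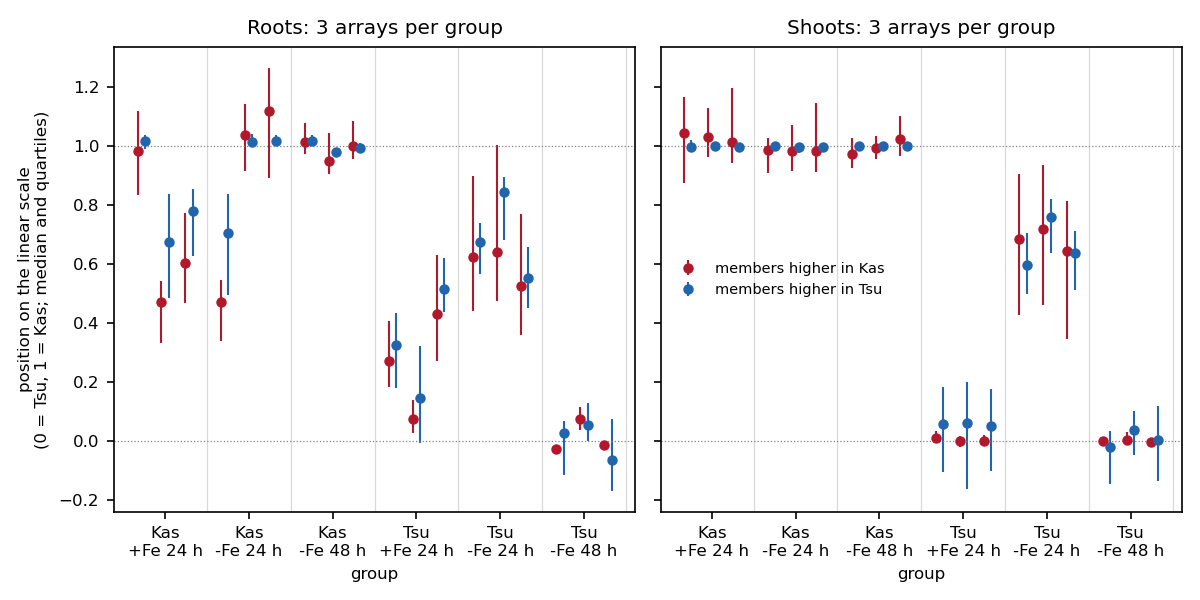
Median position of the members on the linear scale in every array (points, with bars from the lower to the upper quartile of members), apart for the members higher in Kas and in Tsu, where 0 is the Tsu and 1 the Kas mean at 48 h. Kas shoots lie near 1 and Tsu shoots with iron near 0, Tsu shoots at 24 h without iron lie at 0.595 to 0.758, and the root arrays of 24 h are spread between.

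Single members were spread around these medians. In Tsu shoots at 24 h without iron 6 members lay below 0.25 on the linear scale, 53 between 0.25 and 0.75 and 22 above, of which 5 were beyond the Kas level. In Tsu roots at that time the counts were 5, 52 and 24, with 7 beyond the Kas level, and in Tsu roots with iron they were 29, 51 and 1. Most members thus left the Tsu level in both tissues of Tsu at 24 h without iron. In Kas roots with iron 37 members lay between and 42 above 0.75, and in Kas roots at 24 h without iron 9 and 70. Across members the positions in Tsu roots and Tsu shoots at 24 h without iron had a Spearman correlation of 0.574 for the 33 higher in Kas and 0.540 for the 48 higher in Tsu. Their Pearson correlations were 0.051 and 0.694. With Tsu roots with iron set against the same shoots, the Spearman values were 0.749 and 0.165. Each is a description over members that share the same 6 arrays and the same scale, with no test.

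**Figure D4:**
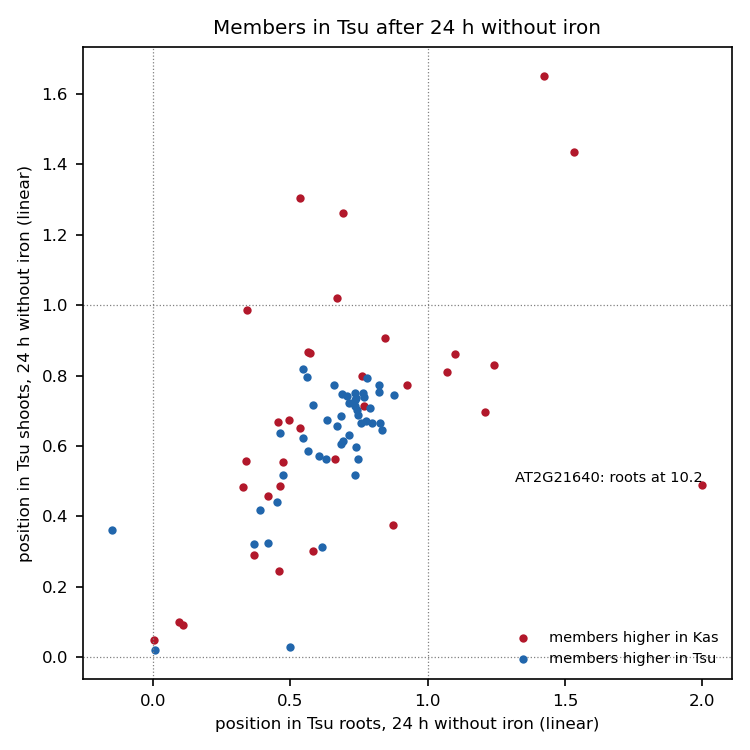
Linear position of each member in Tsu after 24 h without iron, mean of 3 arrays, in roots on the x axis and shoots on the y axis, with 0 the Tsu and 1 the Kas mean at 48 h. Between 0.25 and 0.75 lie 52 members in roots and 53 in shoots, 4 lie near 0 in both, and AT2G21640, at 10.2 in roots, is drawn at the edge.

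At the low end 4 members stayed near the Tsu level in both tissues of Tsu at 24 h without iron. They were probe set 251905_at, AT4G09890, of a family of unknown function, and the peptidase gene AT1G23440, all higher in Kas, and probe set 247712_at, higher in Tsu. Their linear positions in roots and shoots were 0.0038 and 0.0472 for 251905_at, 0.0928 and 0.101 for AT4G09890, 0.108 and 0.0911 for AT1G23440, and 0.006 and 0.0192 for 247712_at. They were picked out after their values were seen, and near the Tsu level does not mean level: AT1G23440 (0.68, adjusted p = 0.000176) and AT4G09890 (0.51, adjusted p = 0.0293) still rose in Tsu shoots at 24 h without iron, by limma.

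In Kas roots AT1G23440 read 7.80, 7.47 and 7.48 with iron, 7.56, 8.38 and 8.27 after 24 h of deficiency and 7.62, 7.70 and 7.53 after 48 h. AT1G23440 levels of the Tsu roots arrays were 5.71, 5.56 and 5.99 with iron, 5.93, 5.84 and 5.85 at 24 h without it and 5.20, 5.54 and 5.45 at 48 h. No Kas root array of AT1G23440 came near a Tsu one, those with a position between the ecotypes included. AT1G23440 in Kas shoots was at 6.80, 6.82 and 6.75 with iron, at 6.88, 6.85 and 6.77 after 24 h without it and at 7.13, 6.94 and 6.91 after 48 h. For AT1G23440, Tsu shoots read 4.31, 4.32 and 4.48 with iron, 5.13, 4.91 and 5.13 at 24 h without it and 4.39, 4.87 and 4.48 at 48 h. In shoots the groups were as far apart, with Tsu at 24 h without iron somewhat above the other Tsu arrays. The difference was 1.83 in roots with iron (SE 0.20, adjusted p = 0.00113), 2.20 in roots without, 2.42 in shoots with iron and 1.78 in shoots without. In Kas roots AT4G09890 read 6.72, 5.12 and 6.31 with iron, 5.01, 5.39 and 6.07 after 24 h of deficiency and 5.63, 5.69 and 6.23 after 48 h. AT4G09890 levels of the Tsu roots arrays were 3.61, 3.45 and 3.42 with iron, 3.52, 3.55 and 3.92 at 24 h without it and 2.91, 3.18 and 3.01 at 48 h. AT4G09890 was apart in every root condition, though Kas replicate 2 with iron and replicate 1 without read lowest for their groups. AT4G09890 in Kas shoots was at 6.03, 5.60 and 5.56 with iron, at 6.12, 6.08 and 6.14 after 24 h without it and at 5.72, 6.05 and 6.04 after 48 h. For AT4G09890, Tsu shoots read 3.53, 3.44 and 3.69 with iron, 3.72, 4.17 and 4.30 at 24 h without it and 3.49, 3.40 and 3.86 at 48 h. Shoots did not overlap either. In the same order as above its differences were 2.55 (SE 0.35, adjusted p = 0.0034), 1.83, 2.18 and 2.05.

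In Kas roots 251905_at read 7.02, 6.70 and 6.70 with iron, 6.78, 6.56 and 6.47 after 24 h of deficiency and 6.69, 6.56 and 6.58 after 48 h. 251905_at levels of the Tsu roots arrays were 4.33, 3.69 and 4.09 with iron, 4.48, 4.27 and 4.35 at 24 h without it and 4.25, 4.57 and 4.22 at 48 h. This unnamed probe set held its 2 levels in all 18 root arrays. 251905_at in Kas shoots was at 6.70, 6.93 and 6.81 with iron, at 6.69, 6.79 and 6.65 after 24 h without it and at 6.70, 6.60 and 6.82 after 48 h. For 251905_at, Tsu shoots read 4.50, 4.37 and 4.26 with iron, 4.61, 4.51 and 4.61 at 24 h without it and 3.85, 4.40 and 4.69 at 48 h. The shoot arrays fell into the same pair of levels. Its differences were 2.77 (SE 0.17, adjusted p = 1.92e-05), 2.24, 2.44 and 2.13. In Kas roots 247712_at read 5.60, 5.27 and 5.47 with iron, 5.77, 5.36 and 5.38 after 24 h of deficiency and 5.45, 5.07 and 5.52 after 48 h. 247712_at levels of the Tsu roots arrays were 7.44, 7.78 and 7.28 with iron, 7.35, 7.46 and 7.37 at 24 h without it and 7.31, 7.30 and 7.59 at 48 h. The mirror image held for 247712_at, with every Tsu root array above every Kas root array. 247712_at in Kas shoots was at 5.25, 5.24 and 5.29 with iron, at 5.15, 5.14 and 5.43 after 24 h without it and at 5.23, 5.06 and 5.40 after 48 h. For 247712_at, Tsu shoots read 7.77, 7.79 and 7.88 with iron, 7.50, 7.57 and 7.75 at 24 h without it and 7.81, 7.71 and 7.39 at 48 h. The same was seen in shoots. Its differences were -2.06 (SE 0.16, adjusted p = 0.000154), -1.88, -2.55 and -2.37.

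**Figure D5:**
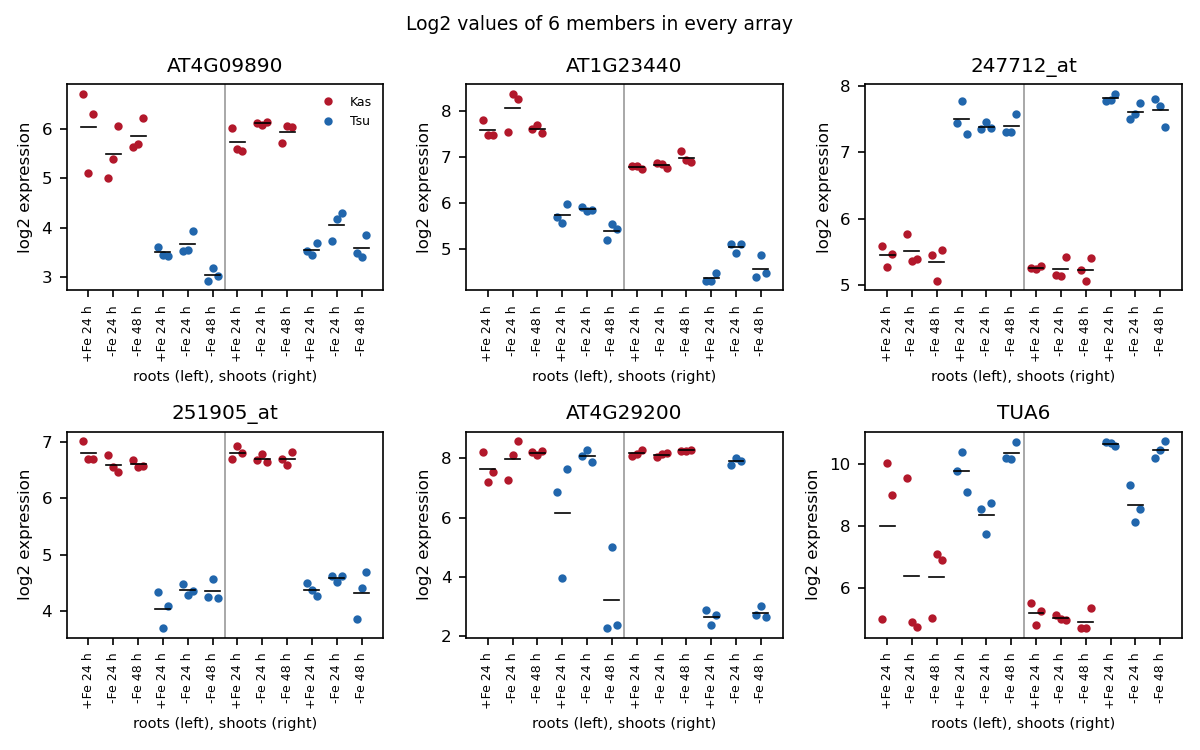
Log2 level of AT4G09890, AT1G23440, 247712_at, 251905_at, AT4G29200 and TUA6 in every array (points, 3 a group) with the group mean as a bar, by tissue, ecotype and medium. The first 4 keep the ecotypes apart in all groups, while AT4G29200 in Tsu shoots at 24 h without iron reads 7.78 to 7.997 against 2.38 to 2.87 with iron, and TUA6 is high in 3 Kas root arrays of 24 h.

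At the other end AT1G11280 and AT2G15560 read beyond the Kas level in both tissues of Tsu at 24 h without iron, with linear positions of 1.42 and 1.65 for AT1G11280 and of 1.53 and 1.43 for AT2G15560. In Kas roots AT1G11280 read 7.02, 5.84 and 6.52 with iron, 6.03, 7.11 and 6.90 after 24 h of deficiency and 7.07, 7.09 and 7.15 after 48 h. AT1G11280 levels of the Tsu roots arrays were 6.09, 5.39 and 6.48 with iron, 7.42, 7.60 and 7.63 at 24 h without it and 3.97, 5.10 and 4.12 at 48 h. In roots at 24 h without iron all 3 Tsu arrays were above the Kas arrays, a difference that was not called (-0.87, adjusted p = 0.142). AT1G11280 in Kas shoots was at 6.87, 6.77 and 6.86 with iron, at 6.60, 6.63 and 6.90 after 24 h without it and at 6.59, 6.64 and 6.66 after 48 h. For AT1G11280, Tsu shoots read 4.46, 4.20 and 4.000 with iron, 7.21, 7.38 and 7.19 at 24 h without it and 3.93, 3.78 and 3.98 at 48 h. In shoots the same order was called, as given above.

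The effect of 24 h without iron was asked for within each ecotype, in the same fits. The comparisons within Tsu and the ecotype comparisons share the same arrays, so they are no independent support of each other. In Kas shoots no member was called by limma (7 had an unadjusted p below 0.05), where 2.22% of all probe sets were called, 1.24% up and 0.972% down. In Kas roots 1 was, the lipid-transfer-type gene AT4G33550, which fell by 2.01 (SE 0.34, adjusted p = 0.0475), where 0.277% of all probe sets were called, 0.11% up and 0.167% down. That count was 5 without replicate 1 of Kas without iron, 4 without replicate 2 of Kas with iron and 0 without any 1 of the other 4 arrays. Over all probe sets 0 to 1231 were called without 1 array, against 63 with all arrays.

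In Tsu shoots 73 members were called, where 17.3% of all probe sets were, 8.67% up and 8.65% down. Of the members higher in Kas 31 of 33 rose, and of those higher in Tsu 42 of 48 fell. The median change was 2.19 over the former and -1.12 over the latter, against -0.02 over all probe sets. Among the 8 genes higher in Kas above, the rise ran from 2.19 for AT2G12050 to 5.25 for AT4G29200, and among the 8 higher in Tsu the fall ran from -0.69 for AT5G04750 to -2.05 for AT3G60980. Of the 8 members not called, those with 1 gene were SUFE2 (-0.15), AT3G48210 (0.33), AT4G33550 (-0.36) and ARPN (0.03), and 251905_at (0.20) and 247712_at (-0.21) were among the rest. All 3 Tsu shoot arrays without iron are between the ecotypes, so there is no value without them, and a response to iron and material of both ecotypes in these arrays cannot be told apart for this count.

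In Tsu roots 7 members were called, all higher in Kas at 48 h and all up, where 5.06% of all probe sets were called, 3.76% up and 1.3% down. With 1 gene these were AT2G21640 (6.62, adjusted p = 7.3e-09), AT2G12050 (1.91, adjusted p = 0.0299), AT1G11280 (1.56, adjusted p = 0.0227) and AT3G28940 (0.89, adjusted p = 0.00985), and 255437_at (2.75) was another. The count was 13 without replicate 3 and 3 without replicate 2 of Tsu with iron, and 2, 1 and 3 without replicates 1, 2 and 3 of Tsu without iron. Over all probe sets 374 to 1684 were called without 1 array, against 1151 with all arrays.

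The difference between the ecotypes in their change without iron, the interaction, was called for 69 members in shoots, where 12.2% of all probe sets were called, 5.62% with a positive and 6.62% with a negative value of the change in Kas minus that in Tsu. In 30 members higher in Kas it was negative, with a median of -2.46 over all 33, and in 39 members higher in Tsu it was positive, with a median of 1.10 over all 48. The largest among members with 1 gene were -5.29 for AT4G29200 (SE 0.18, adjusted p = 3.62e-11), -4.89 for AT1G73490, -4.79 for AT2G15560, -4.29 for AT5G45500 and -4.22 for ZW9. Their levels in every array are given above, and in each the Kas shoot arrays stayed level while the Tsu shoot arrays at 24 h without iron left the other Tsu arrays. The limit given for the iron comparison in Tsu shoots holds for these 69 members too, since the same 3 arrays enter.

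In roots the interaction was called for 3 members, where 3.44% of all probe sets were, 0.866% with a positive and 2.57% with a negative value. Without replicate 2 of Kas with iron it was called for 6. Over all probe sets 323 to 2061 were called without 1 array, against 782 with all arrays. The 3 members were AT2G21640 (-6.39, SE 0.34, adjusted p = 6.17e-07), 255437_at (-5.15, SE 0.81, adjusted p = 0.00447) and ARPN (-1.01, SE 0.24, adjusted p = 0.0446). AT2G21640 encodes a mitochondrial protein used as a marker of oxidative stress. In Kas roots AT2G21640 read 3.66, 3.21 and 3.60 with iron, 3.27, 4.04 and 3.86 after 24 h of deficiency and 7.14, 7.41 and 7.27 after 48 h. AT2G21640 levels of the Tsu roots arrays were 3.53, 4.15 and 3.62 with iron, 10.27, 10.78 and 10.11 at 24 h without it and 3.79, 6.47 and 3.27 at 48 h. The Tsu root arrays at 24 h without iron were far above every other root array, Kas arrays included, and the level in Kas was high at 48 h alone. AT2G21640 in Kas shoots was at 6.25, 5.80 and 6.23 with iron, at 6.54, 6.46 and 6.56 after 24 h without it and at 6.57, 6.40 and 6.54 after 48 h. For AT2G21640, Tsu shoots read 3.71, 4.16 and 4.06 with iron, 6.11, 5.58 and 5.41 at 24 h without it and 4.01, 4.24 and 3.99 at 48 h. In shoots Kas was above Tsu on both media and at both times, with Tsu at 24 h without iron nearest to Kas. Its root difference at 24 h without iron was -6.67 (SE 0.24, adjusted p = 6.73e-09), in the opposite direction to that at 48 h.

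ARPN was higher in Tsu in every condition. In Kas roots ARPN read 6.04, 6.20 and 6.72 with iron, 6.03, 5.91 and 5.64 after 24 h of deficiency and 5.21, 5.80 and 5.86 after 48 h. ARPN levels of the Tsu roots arrays were 7.88, 7.87 and 8.05 with iron, 8.31, 8.51 and 8.62 at 24 h without it and 8.17, 8.24 and 8.53 at 48 h. The root groups were well apart, at a difference of -1.61 with iron and -2.62 without. ARPN in Kas shoots was at 3.65, 3.95 and 3.87 with iron, at 4.06, 4.10 and 3.93 after 24 h without it and at 4.09, 3.74 and 3.96 after 48 h. For ARPN, Tsu shoots read 5.60, 5.88 and 5.59 with iron, 5.82, 5.45 and 5.89 at 24 h without it and 6.13, 6.15 and 6.38 at 48 h. In shoots the difference was -1.87 with iron and -1.69 without, and the interaction was not called there (0.18, adjusted p = 0.616). ARPN was thus also one of the 8 members with no called change in Tsu shoots without iron.

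Lists of genes in which ecotypes of this plant are known to vary were looked at beside the members, each limited to genes with a probe set of their own in the annotation. Of 19 genes of glucosinolate synthesis 4 were measured. GSTU20, a glutathione transferase of the pathway, was higher in Tsu in roots without iron (-1.86) and in shoots with and without iron (-2.10 and -1.01), all called, and was 0.05 in roots with iron. BCAT4, which starts methionine chain elongation, was called at -2.21 in roots without iron, 0.76 in shoots with iron and 0.30 in shoots without, and was 0.44 in roots with iron. UGT74B1, which adds glucose in the core pathway, was called in roots without iron (-0.77) and not otherwise (0.27, 0.07 and 0.20), and AOP1, a dioxygenase gene related to AOP3, in shoots with iron (-1.10) and not otherwise (0.21, 0.66 and -0.41). None of these 4 is a member.

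Of 20 resistance genes of the NLR and RPW8 classes 2 were measured. The member CSA1, a resistance receptor given array by array above, is not on this list. LOV1 was called as higher in Kas in shoots with iron (1.23) and without (0.44), with 0.44 and 0.24 in roots. AT4G12010 was called as higher in Tsu in shoots without iron (-0.61), with 0.47 in shoots with iron and 0.13 and -0.05 in roots. Of 11 genes of defence metabolism 1 was measured, AT5G44630, a terpene synthase, called at -0.55 in shoots without iron, with -0.22 in shoots with iron and -0.27 and -0.01 in roots. None of the 8 listed genes of glucosinolate breakdown and none of the 10 of flowering time had such a probe set, so nothing is said of them. The 4 photosystem genes had no call in any ecotype comparison at 24 h. The 3 measured root genes had none in roots with iron and calls both ways elsewhere. EXPA18, an expansin, was called as higher in Kas in roots without iron (1.38, adjusted p = 0.0115) and in shoots with iron (0.76, adjusted p = 0.0418). PYK10, a beta-glucosidase, was called as lower in Kas in roots without iron (-0.55, adjusted p = 0.0442) and in shoots with iron (-0.36, adjusted p = 0.0188), and as higher in shoots without iron (0.52, adjusted p = 0.00317). EXPA7, another expansin, was called as lower in Kas in shoots without iron (-0.38, adjusted p = 0.0361).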

How the data were processed

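Each of the 36 samples gave biotin-labelled total RNA for an Affymetrix array with a single colour, per the labels. The authors deposited 1 log2 expression value per probe set and array, from 1.31 to 13.47, as the values show. How background was corrected, probes summarised and arrays normalized is not given in the sources used here, nor is the software, so a difference in level may depend on steps that could not be checked. Depth is not defined for arrays, and the 3 arrays of a group limit the precision.

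Groups came from the sample titles. The 64 control probe sets were left out. Gene names came from the array's annotation table, updated to RefSeq names of TAIR10.1, which gave 13513 probe sets with 1 gene, 503 with several and 8730 with none, of which 13436 with 1 gene matched. TAIR10.1 served for names, gene types, chromosomes and the order of genes. No promoter, protein or probe sequence was used here.

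For each tissue the 12 arrays of 24 h were fitted with limma 3.58.1 in R 4.3.3 (lmFit and eBayes, 1 mean per group, two-sided, Benjamini-Hochberg over 22746 probe sets, no filter). The procedure was also run on simulated data with independent noise in each array. Those data held no arrays between the ecotypes, so that run says nothing about such arrays. Positions are (level - Tsu mean) / (Kas mean - Tsu mean), with the means of 48 h. Same-numbered arrays did not deviate together, with correlations of -0.391 to 0.270 in roots and -0.080 to 0.088 in shoots, so the replicate numbers were not taken as pairs.

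The members and all lists were chosen with earlier results of these data known. Any member could be named. All arrays are given for the 8 probe sets with 1 gene in each direction with the largest smaller-of-tissues difference at 48 h, and for up to 5 members with 1 gene and the largest called interaction per tissue. The members just inside and the probe sets just outside the threshold are given for the 48 h arrays alone. Members that stayed near Tsu or went beyond Kas were picked after their values were seen. The alternatives were all 18 arrays of a tissue, the compared arrays alone, a replicate block, quantile normalization, no dim probe sets, trend and robust eBayes, each array left out and, chosen after seeing the data, no arrays between the ecotypes.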

Additional observations from a re-analysis of the deposited data

Results flagged for a closer look

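Of the 18 results below, each is a gene given array by array in the report whose ecotypes differed in their change after 24 h without iron, by the interaction term of the limma fit with Benjamini-Hochberg adjustment (values are Kas change minus Tsu change, log2, 3 arrays a group). In roots these were AT2G21640 at -6.39 (SE 0.34, adjusted p = 6.17e-07), with a called rise in Tsu and no called change in Kas, and ARPN at -1.01 (SE 0.24, adjusted p = 0.0446).

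In shoots all 8 such genes higher in Kas at 48 h had a negative value. AT4G29200 was at -5.29 (adjusted p = 3.62e-11), AT1G73490 at -4.89 (adjusted p = 1.56e-08), AT2G15560 at -4.79 (adjusted p = 3.09e-08) and AT5G45500 at -4.29 (adjusted p = 8.26e-09). ZW9 was at -4.22 (adjusted p = 1.62e-08), scpl41 at -3.65 (adjusted p = 1.56e-08), AT5G59680 at -3.41 (adjusted p = 1.38e-08) and AT2G12050 at -2.26 (adjusted p = 3.86e-05).

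All 8 genes higher in Tsu had a positive value in shoots. TUA6 was at 1.82 (adjusted p = 0.00137), CSA1 at 1.80 (adjusted p = 0.00033), AT3G60980 at 1.79 (adjusted p = 0.00024) and AT3G57470 at 1.46 (adjusted p = 0.000256). AT5G05750 was at 1.22 (adjusted p = 0.000317), AT2G03470 at 1.09 (adjusted p = 0.00513), AT3G62400 at 0.90 (adjusted p = 0.0187) and AT5G04750 at 0.85 (adjusted p = 0.002). For these 16 genes the change in Tsu shoots was called and that in Kas shoots was not. The 3 Tsu shoot arrays without iron are among the arrays between the ecotypes, and whether those hold material of both ecotypes was not tested.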

How the results depend on the processing

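Counts of members called moved by over 1.5 times as follows. In roots with iron, 23 became 7 with the compared arrays alone, 15 without dim probe sets and 69 without the arrays between the ecotypes, and leaving out 1 array gave 14 to 34. In roots without iron, 17 became 58 without the arrays between the ecotypes, and leaving out 1 array gave 12 to 29. For iron in Kas roots, 1 became 3 with all 18 arrays, 0 with the compared arrays alone, with the replicate block, after quantile normalization and without dim probe sets, and 4 without the arrays between the ecotypes, with 0 to 5 when 1 array was left out. For iron in Tsu roots, 7 became 50 without the arrays between the ecotypes and 1 to 13 without 1 array, and the root interaction went from 3 to 10 and 2 to 6. Without dim probe sets the shoot counts were 44 with iron and 32 without, and 40 for iron in Tsu and 40 for the interaction, since fewer members were then tested. Leaving out 1 array gave 80 to 81, 60 to 64, 70 to 72 and 68 to 71 in that order. For iron in Kas shoots, 0 became 1 with all 18 arrays, with the compared arrays alone, without dim probe sets, with trend and robust eBayes and without the arrays between the ecotypes, and was 0 to 1 without 1 array. The replicate block moved no other count of calls by over 1.5 times. The root counts without the arrays between the ecotypes come from fits that leave Kas with iron 1 array. Those arrays were picked on the members' own levels, so these root counts support nothing.

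The number of members was 478 at a threshold of 1 and 29 at a threshold of 3, and leaving out 1 array of 48 h gave 80 to 83. Without 1 array the counts over all probe sets ran from 215 to 2937 and from 1010 to 1824 for the ecotypes in roots with and without iron, where they were 1287 and 2171. They ran from 0 to 1231 against 63 for iron in Kas roots, from 374 to 1684 against 1151 in Tsu roots and from 323 to 2061 against 782 for the root interaction. In shoots they ran from 6522 to 7194 against 7792, 3476 to 3787 against 4940, 214 to 387 against 504, 2886 to 3373 against 3941 and 2136 to 2717 against 2785, in the same order.

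Median positions moved with the scale and the direction of the members. On the linear scale they became 0.995 in Kas shoots and 0.678 in Tsu shoots without iron, and 0.674 in Tsu roots without iron. Over the members higher in Kas the log2 positions were 1.01 in Kas shoots with iron, 0.791 in Tsu roots and 0.851 in Tsu shoots without iron, and 0.471 in Tsu roots with iron. Over those higher in Tsu they were 0.981 in Kas shoots without iron, 0.983 with iron and 0.384 in Tsu shoots without iron. Leaving out 1 array gave 0.801 to 1.04 in Kas roots without iron, 0.615 to 0.848 with iron, 0.467 to 0.595 in Tsu roots without iron and 0.180 to 0.303 with iron. In shoots it gave 0.987 to 0.993, 0.991 to 1.0002, 0.427 to 0.510 and 0.0106 to 0.0227.

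The following differences, none of them called, changed sign. AT5G45500 in roots with iron became -0.11 without replicate 2 of Tsu, in a range of -0.11 to 1.002 without 1 array. In roots without iron AT4G29200 ran from -0.39 to 0.27 without 1 array, and was 0.011 after quantile normalization and 0.27 without the arrays between the ecotypes. There AT2G12050 ran from -0.21 to 0.30, and AT5G59680 from -0.44 to 0.24, with 0.24 without the arrays between the ecotypes. In shoots without iron AT1G73490 ran from -0.11 to 0.17, and AT5G59680 from -0.12 to 0.052, with 0.060 after quantile normalization. The cause of these changes was not tested. The ecotype differences of the genes with the largest smaller-of-tissues difference at 48 h were also compared between fits. Leaving out 1 array left 359 results the same and made 9 weaker, 4 stronger and 12 reversed. The compared arrays alone made 1 weaker and 2 stronger, and the replicate block made 1 weaker. Which results were weaker is not given here, so calls near the cutoff, as for AT5G04750 in roots, may not hold.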
